A study of Rattus norvegicus with 12 samples.

Results

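Spcs3, Ostc and Ern1 encode a signal peptidase subunit, a subunit of the oligosaccharyltransferase and the stress sensor IRE1α, all of which sit in the membrane of the endoplasmic reticulum (ER). They are 3 of the 20842 genes in a table of RNA-seq counts from Normal Rat Kidney (NRK) cells, and all 3 were among the 13141 genes that passed the filter on low counts. They were matched by symbol and Ensembl identifier, which is ENSRNOG00000038933 for Spcs3, ENSRNOG00000023322 for Ostc and ENSRNOG00000012864 for Ern1. The study lists them as genes that differ between VAMP7KO and WT cells, so they were chosen by their fold change and adjusted p in that contrast. Their values in it are given as a description, without a test. The contrast of VAMP7KO with ATG5KO holds the same VAMP7KO libraries and is treated likewise.

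NRK is an established rat kidney line, labelled epithelial. The study's text calls the cells fibroblastic in some places and epithelial in others. WT cells were compared with VAMP7KO cells, made to lack the SNARE protein VAMP7, and ATG5KO cells, made to lack the autophagy protein ATG5. Both knockouts were made with CRISPR/Cas9 and started from single sorted cells that carried GFP with the Cas9 plasmid. The number of clones behind each genotype is not given in the sources used here, so a difference between genotypes and a difference between clones cannot be told apart. All cells were grown in complete medium and left untreated, and polyA RNA was read from 4 replicates of each genotype, numbered 1 to 4, in 12 libraries.

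Proteins bound for secretion or for membranes enter the ER through the translocon. The signal peptidase complex removes their signal peptide there, and the oligosaccharyltransferase attaches glycans to the entering chain. IRE1α senses unfolded protein in the ER lumen and splices the mRNA of the transcription factor XBP1, which is 1 arm of the unfolded protein response (UPR). Spcs3 encodes the glycosylated subunit of the signal peptidase complex, and Ostc a small subunit of the oligosaccharyltransferase form that works at the translocon.

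The libraries held 21090858 to 31525111 counts each. Levels are given as CPM, the counts scaled to library totals that were adjusted by the TMM method. Vamp7, the gene targeted in VAMP7KO, was at 41.56 to 51.89 CPM in those cells, against 108.7 to 115.8 CPM in WT and 125.1 to 130.0 CPM in ATG5KO. Its mRNA was thus lower in all VAMP7KO libraries, and that of Atg5 was not analysed here. Replicates 3 and 4 stood apart from replicates 1 and 2 in all genotypes, a split that the labels do not name, so results are also given within each pair of replicates, called a set. Of 12 epithelial markers only Krt8 could be named in the table. It was at 646 to 875 CPM in WT, 452 to 571 in VAMP7KO and 552 to 780 in ATG5KO. Krt8 was thus lower in VAMP7KO than in WT without overlap, as were 8.74% of all genes tested, while ATG5KO overlapped with WT. Of 12 mesenchymal markers 6 were named, and their summed level was 536 to 1450 CPM in WT, 1150 to 3210 in VAMP7KO and 2180 to 3960 in ATG5KO. Most of this sum was Col1a1 and Col3a1, which were lower in replicates 3 and 4, by log2 differences of -0.99 and -1.73. Acta2 had a mean of 74 CPM in VAMP7KO, against 9.39 in WT and 8.74 in ATG5KO. Thy1 had a mean of 143 CPM in ATG5KO and was at or near 0 in WT and VAMP7KO. The other named mesenchymal markers had higher means in both knockouts than in WT, where Dcn was at or near 0. Of 3 proximal tubule markers, Aqp1 and Lrp2 were named, and their sum was 146 to 351 CPM in WT, 0.995 to 10.6 in VAMP7KO and 6.07 to 34.8 in ATG5KO. Nearly all of this sum was Aqp1. Lrp2 was under 1 CPM in all libraries and went the other way in ATG5KO, with a mean of 0.857 CPM against 0.187 in WT and 0.171 in VAMP7KO. Symbols came from the study's lists of changed genes, so markers outside those lists could not be assessed. A difference in the named markers was therefore favoured by the naming and is not independent evidence of a change of cell type. The genotypes differed in these named markers as well as in the genes below, and the part of this in the results was not tested. Fewer cells of a type and less RNA per cell cannot be told apart in such bulk libraries.

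Spcs3 was measured with 2542 to 6991 reads per library, so the counting error of a single library was 1.2 to 1.98%. In WT the level was 141.9, 128.9, 176.1 and 170.4 CPM in replicates 1 to 4. In VAMP7KO it was 220.1, 215.2, 252.4 and 248.2 CPM. In ATG5KO it was 118.1, 129.5, 136.4 and 136.4 CPM. All 4 VAMP7KO libraries lay above every WT and ATG5KO library, and ATG5KO overlapped with WT. The means were 154.3 ± 22.6 CPM in WT, 234 ± 19.1 in VAMP7KO and 130.1 ± 8.64 in ATG5KO (SD, n = 4 each).

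The contrast that chose Spcs3 gave a ratio of mean levels of 1.52 for VAMP7KO over WT, with 1.43 to 1.67 in the 4 pairs of equal replicate number. This is close to the 1.5-fold limit of the study's list. Levels above WT without overlap were found for 6.8% of all genes tested, which is given only as the background of a contrast used in the choice. Against ATG5KO, the VAMP7KO level of Spcs3 was 1.8 times as high, and 13.1% of the genes lay above ATG5KO without overlap.

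The comparison of ATG5KO with WT did not choose the genes, but it holds the same WT libraries as the contrast that did. Spcs3 was lower in ATG5KO, with a ratio of means of 0.843 and lower values in 3 of 4 pairs. The log2 fold change was -0.24 (standard error, SE, 0.0675, Benjamini-Hochberg adjusted p = 0.0163 in edgeR's quasi-likelihood test over all genes tested). With an adjusted p under 0.05, 22.7% of all genes were called lower and 46.3% were called in either direction, so such a call was common. The change of Spcs3 was larger than that of 40.7% of the genes. The call was lost with no replicate block, a fit that called 11.2% of the genes lower (log2 fold change -0.25, adjusted p = 0.144 in edgeR). It was also lost without ATG5KO replicate 1 (-0.21, adjusted p = 0.0538 in edgeR), replicate 3 (-0.21, adjusted p = 0.0685) or replicate 4 (-0.22, adjusted p = 0.0602). In replicates 1 and 2 alone the value was -0.15 and not called (adjusted p = 0.223 in edgeR). In replicates 3 and 4 alone it was -0.34 and called (adjusted p = 8.14e-08 in edgeR). That fit called 33.9% of its genes lower, so such a call was common. The difference of the ATG5KO effect between the sets was -0.22 (SE 0.0989, adjusted p = 0.113 in edgeR), with 2 standard errors on either side reaching from -0.41 to -0.02, and leaving out 1 library moved it from -0.29 (without WT replicate 1) to -0.13 (without WT replicate 2), never called. On the log2 levels of the 8 libraries alone, an exact 2-sided permutation test gave p = 0.143, where 0.0286 is the smallest p that 4 against 4 allow. This test exchanged labels across the replicate sets, so it leaves the difference between the sets in the spread.

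**Figure D1:**
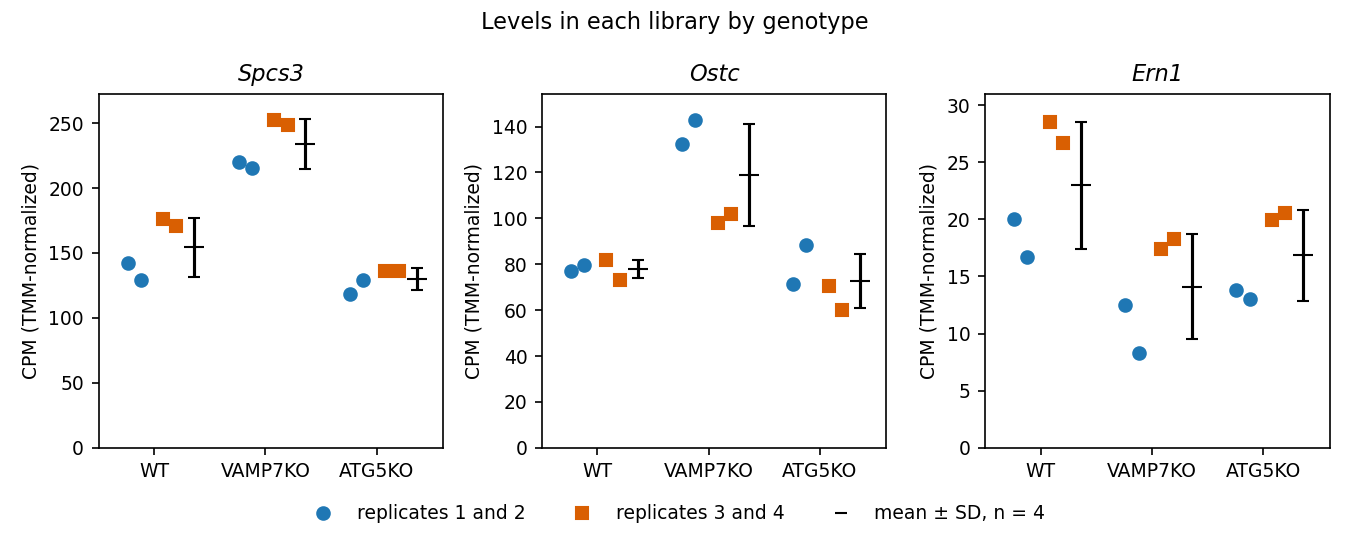
Level of Spcs3, Ostc and Ern1 in each of the 12 libraries, in CPM, by genotype. Circles are replicates 1 and 2, squares are replicates 3 and 4, and bars give the mean ± SD of the 4 replicates. The VAMP7KO libraries lie above all others for Spcs3 and Ostc, while for Ern1 replicates 3 and 4 lie above replicates 1 and 2 within every genotype.

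Ostc was measured with 1306 to 3968 reads per library, for a counting error of 1.59 to 2.77%. In WT it was at 76.99, 79.68, 81.88 and 73.12 CPM in replicates 1 to 4. In VAMP7KO it was at 132.6, 142.9, 97.93 and 101.8 CPM. In ATG5KO it was at 71.45, 88.4, 70.36 and 60.17 CPM. The VAMP7KO libraries were again above all others, but their replicates 3 and 4 were much closer to the WT level than their replicates 1 and 2. WT was the most even group, with a coefficient of variation of 4.84%, against 18.8% in VAMP7KO and 16.1% in ATG5KO. The means were 77.92 ± 3.77 CPM in WT, 118.8 ± 22.3 in VAMP7KO and 72.6 ± 11.7 in ATG5KO (SD, n = 4 each).

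The ratio of mean Ostc levels of VAMP7KO over WT was 1.52, as for Spcs3, but it was 1.76 in replicates 1 and 2 and 1.29 in replicates 3 and 4. The same ratio for Spcs3 was 1.61 and 1.44 in the 2 sets. The difference of the VAMP7KO effect between the sets was tested as an interaction of genotype and set. For Ostc the log2 fold change was smaller in replicates 3 and 4 by -0.45 (SE 0.136, Benjamini-Hochberg adjusted p = 0.0316 in edgeR's quasi-likelihood test). Such a difference was called for 16.5% of all genes tested, and in this direction for 7.5%. The call for Ostc was lost in edgeR without WT replicate 1, 2 or 3 or VAMP7KO replicate 2, 3 or 4, with adjusted p from 0.0512 to 0.173. For Spcs3 the difference was -0.15 (SE 0.0979, adjusted p = 0.325 in edgeR) and 2 standard errors on either side reached from -0.35 to 0.04, so an equal effect in the sets was not shown. The value went from -0.25 without WT replicate 1 to -0.10 without WT replicate 2.

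Ostc in ATG5KO was not called different from WT. The ratio of means was 0.932, the log2 fold change was -0.12 (SE 0.0973, adjusted p = 0.347 in edgeR), and 2 standard errors on either side reached from -0.31 to 0.08. In replicates 1 and 2 alone the log2 fold change was 0.01 (adjusted p = 0.954 in edgeR). In replicates 3 and 4 alone it was -0.24 (adjusted p = 0.00137 in edgeR), in a fit that called 33.9% of its genes lower. The difference of the ATG5KO effect between the sets, -0.28, was itself not called (SE 0.138, adjusted p = 0.147 in edgeR). It was called without ATG5KO replicate 1, at -0.41 (adjusted p = 0.0242 in edgeR). Of all genes tested, 28.9% had such a difference. Over the 8 libraries, an exact 2-sided permutation test of ATG5KO against WT gave p = 0.4 for Ostc.

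The proportion of Spcs3 to Ostc reads differed between the replicate sets. In WT there were 1.84, 1.62, 2.15 and 2.33 Spcs3 reads per Ostc read in replicates 1 to 4. In VAMP7KO there were 1.66, 1.51, 2.58 and 2.44, and in ATG5KO 1.65, 1.47, 1.94 and 2.27. Replicates 3 and 4 were above replicates 1 and 2 in each genotype. The genotypes overlapped in replicates 1 and 2, while in replicates 3 and 4 both VAMP7KO ratios lay above those of WT and ATG5KO. The share of other gene pairs separated in these ways was not computed, so neither is read as particular to this pair. The mean ratio was 1.29 times as high in replicates 3 and 4 in WT, 1.58 times in VAMP7KO and 1.35 times in ATG5KO. The mean log2 difference between the sets was 0.49. An exact 2-sided permutation test of the set labels within each genotype gave p = 0.00926, the smallest for its 216 arrangements. This difference combines the set differences of the 2 genes, which are tested singly below, and is not a further result. The sets were seen in these same libraries, and 70.9% of all genes tested were called between them. These are ratios of reads, not of transcripts, since the lengths of the transcripts were not used here.

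**Figure D2:**
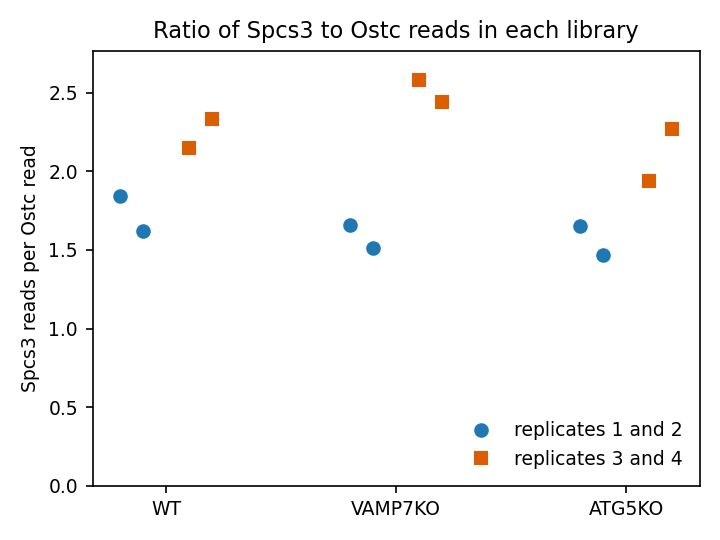
Spcs3 reads per Ostc read in each library, by genotype, with circles for replicates 1 and 2 and squares for replicates 3 and 4. The circles lie between 1.47 and 1.84 and the squares between 1.94 and 2.58, without overlap. How common this is among other gene pairs was not computed.

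The promoters of Spcs3 and Ostc are shown because the transcripts were both highest in VAMP7KO. The sequences are the 250 bases before the start of each gene in RefSeq, on the GRCr8 build. The Spcs3 window is chr16:44038171-44038420 on the plus strand, and the Ostc window is chr2:221940254-221940503 on the minus strand. Each is written 5′ to 3′ along the gene, and capitals mark the letters CCAAT, found on the opposite strand as ATTGG.
Spcs3: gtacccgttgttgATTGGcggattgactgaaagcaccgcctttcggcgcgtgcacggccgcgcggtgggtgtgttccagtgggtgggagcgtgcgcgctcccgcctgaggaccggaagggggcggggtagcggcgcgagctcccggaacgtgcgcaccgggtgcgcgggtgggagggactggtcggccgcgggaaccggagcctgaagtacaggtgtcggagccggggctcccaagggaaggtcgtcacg
Ostc: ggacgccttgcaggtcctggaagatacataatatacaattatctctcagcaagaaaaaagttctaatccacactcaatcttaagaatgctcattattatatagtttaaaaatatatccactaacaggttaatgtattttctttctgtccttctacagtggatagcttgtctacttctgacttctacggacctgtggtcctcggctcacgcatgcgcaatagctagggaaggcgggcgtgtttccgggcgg
The Spcs3 window holds 70.8% G and C, more than 92.8% of all 33469 promoter windows of this length, and the Ostc window holds 42.4%, more than 19.3% of them. The single CCAAT of Spcs3 begins at base -237 from the start, and 34% of all windows hold one. Both strands were searched for letters known from ER stress and amino acid response genes. These were the ER stress elements ERSE (in 0.0657% of all windows) and ERSE-II (0.0418%), TGACGTGG (UPRE, 0.52%), TGACGTCA (CRE, 1.59%), TGATGNAAT (CARE, 0.944%) and CCACG alone (27.2%). ERSE and ERSE-II contain CCAAT and CCACG, so these searches overlap. None of them matched either window, which says only that these letters are not in these bases. The promoter of Ern1 was not analysed here.

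Ern1 was measured with 184 to 867 reads per library and had a larger counting error, of 3.4 to 7.37%. In WT it was at 20.0, 16.69, 28.49 and 26.72 CPM in replicates 1 to 4. In VAMP7KO it was at 12.53, 8.324, 17.37 and 18.26 CPM. In ATG5KO it was at 13.8, 13.04, 19.93 and 20.6 CPM. Over all 4 replicates the genotypes overlapped, because each was lower in replicates 1 and 2. Within each set the order was WT, then ATG5KO, then VAMP7KO, with no overlap between neighbours. This order without overlap in both sets was found for 1.1% of all genes tested, from which nothing is read, since the choice of the gene fixed part of it. Of all genes tested, 23.4% lay lower in ATG5KO than in WT and 19% lower in VAMP7KO than in WT without overlap in both sets.

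The means of Ern1 were 22.97 ± 5.56 CPM in WT, 14.12 ± 4.61 in VAMP7KO and 16.84 ± 3.97 in ATG5KO (SD, n = 4 each). In the contrast that chose it, the ratio of VAMP7KO over WT was 0.615, with 0.499 to 0.683 in the pairs. It was 0.568 in replicates 1 and 2 and 0.645 in replicates 3 and 4. The difference of that effect between the sets was 0.17 on the log2 scale (SE 0.2, adjusted p = 0.639 in edgeR), and 2 standard errors on either side reached from -0.23 to 0.56. The ratio of VAMP7KO over ATG5KO was 0.838, with the lower value in VAMP7KO in 4 of 4 pairs.

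Ern1 was lower in ATG5KO than in WT, in 4 of 4 pairs and by a similar ratio in both sets. This comparison holds the same WT libraries as the contrast that chose Ern1. The choice of a gene lower in VAMP7KO than in WT favours high WT values, and so a lower value in ATG5KO. The tests of this paragraph between ATG5KO and WT are therefore not independent of the choice. The ratio of means was 0.733, with 0.732 in replicates 1 and 2, 0.734 in replicates 3 and 4 and 0.69 to 0.781 in the pairs. The log2 fold change was -0.44 (SE 0.0983, Benjamini-Hochberg adjusted p = 0.00456 in edgeR's quasi-likelihood test), larger than the change of 62.8% of the genes. It was called with each of the 12 libraries left out in turn, and in the fits of replicates 1 and 2 alone (-0.47, adjusted p = 0.0351 in edgeR) and of replicates 3 and 4 alone (-0.45, adjusted p = 5.58e-05). Those fits called 21.2% and 33.9% of their genes lower. With no replicate block it was not called (-0.45, adjusted p = 0.27 in edgeR). The exact 2-sided permutation test over 8 libraries, which ignores the sets although Ern1 differed between them, gave p = 0.143. The ATG5KO effect on Ern1 differed between the sets by 0.01 (SE 0.196, adjusted p = 0.991 in edgeR), with 2 standard errors reaching from -0.39 to 0.40.

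**Figure D3:**
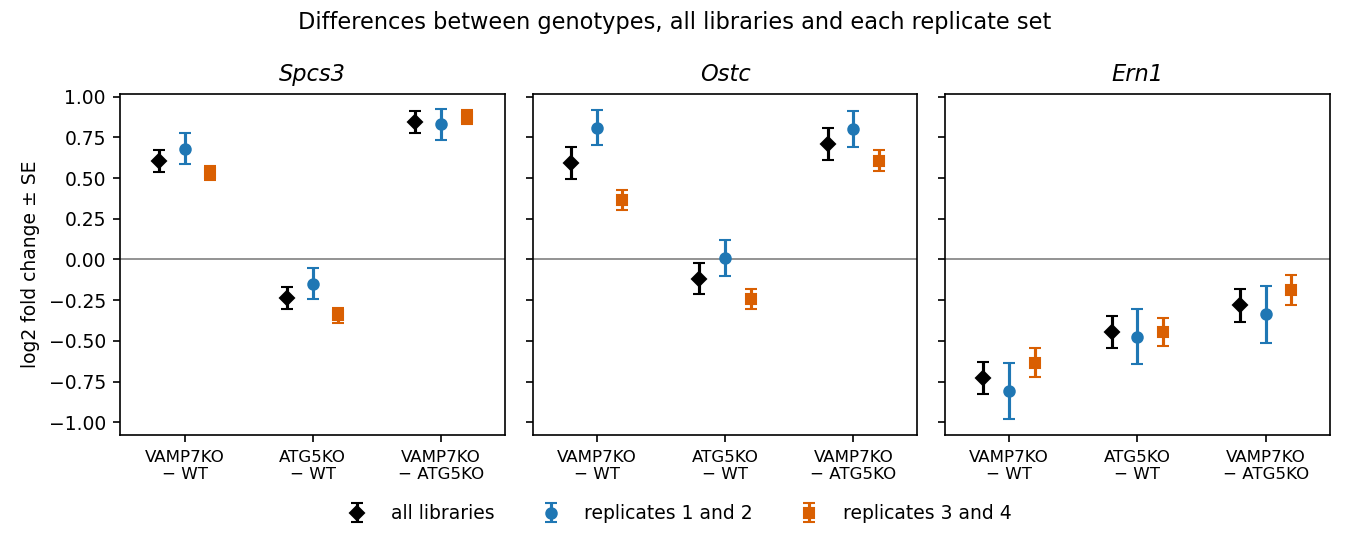
Log2 fold changes between genotypes ± standard error for Spcs3, Ostc and Ern1, from all libraries (diamonds), replicates 1 and 2 alone (circles) and replicates 3 and 4 alone (squares). VAMP7KO minus WT chose the genes. For ATG5KO minus WT, Ern1 is at -0.47 and -0.45 in the sets, whereas Ostc is at 0.01 and -0.24.

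Of the 3 genes, Spcs3 and Ern1 were thus called lower in ATG5KO and Ostc was not, against 22.7% of all genes called lower. By mean level, Spcs3 and Ostc had the order VAMP7KO, WT, ATG5KO, as did 20.1% of the genes tested. For Ern1 the order was WT, ATG5KO, VAMP7KO, as for 10.5%. WT and ATG5KO are neighbours in all 3 orders, and their libraries overlapped for each gene, as did those of ATG5KO and VAMP7KO for Ern1.

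On the mean over the 3 genotypes, the replicate sets differed for all 3 genes, in a contrast separate from those between genotypes. This mean can hide unlike set differences in the genotypes. Between the sets, 70.9% of all genes tested were called, 34.5% as higher and 36.4% as lower in replicates 3 and 4. Spcs3 was higher in replicates 3 and 4 than in replicates 1 and 2. Its mean went from 135.4 to 173.2 CPM in WT, from 217.6 to 250.3 CPM in VAMP7KO and from 123.8 to 136.4 CPM in ATG5KO. The mean log2 difference was 0.23 (SE 0.0402, Benjamini-Hochberg adjusted p = 5.34e-05 in edgeR's quasi-likelihood test). The sets did not overlap in any genotype, which held in this direction for 22.7% of the genes.

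Ostc was lower in replicates 3 and 4, with a mean log2 difference of -0.26 (SE 0.056, adjusted p = 0.000522 in edgeR). Its mean was 78.34 and 77.5 CPM in the sets of WT, 137.8 and 99.87 CPM in those of VAMP7KO, and 79.93 and 65.27 CPM in those of ATG5KO. The sets did not overlap in VAMP7KO, as for 77.1% of all genes tested, nor in ATG5KO, as for 75.4%, and they overlapped in WT. In ATG5KO the gap was only from 71.45 CPM in replicate 1 to 70.36 CPM in replicate 3. That gap is smaller than the counting errors of these libraries, 2.55% and 2.26%. Spcs3 and Ostc both act on chains entering the ER. By mean level they moved in opposite directions between the sets in VAMP7KO and ATG5KO, while in WT Ostc hardly moved. Both were highest in VAMP7KO.

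Ern1 had the largest set difference of the 3 genes, a log2 value of 0.65 (SE 0.082, adjusted p = 1.47e-06 in edgeR), which exceeded that of 70.4% of the genes. Its mean in replicates 3 and 4 was 1.5 times that in replicates 1 and 2 in WT, 1.71 times in VAMP7KO and 1.51 times in ATG5KO. For comparison, 33.7% of the genes had a smaller set difference than Spcs3 and 36.6% a smaller one than Ostc. WT replicates 1 and 2, at 20.0 and 16.69 CPM, both lay below the highest knockout value of replicates 3 and 4, at 20.6 CPM, so a comparison of Ern1 across sets would not separate the genotypes.

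Over the 12 libraries, log2 levels of Spcs3 and Ostc had a Pearson correlation of 0.728 (Spearman 0.664). Ostc and Ern1 were at -0.683 (-0.587), and Spcs3 and Ern1 at -0.14 (0.021). These libraries share genotypes and sets, so the correlations describe both at once. Spcs3 and Ostc were chosen as higher, and Ern1 as lower, in VAMP7KO than in WT. That choice built in part of these correlations, so they are given as a description only. The biological coefficient of variation within genotypes and replicate numbers in the edgeR fit was 0.0822 for Spcs3, 0.107 for Ostc and 0.106 for Ern1, where the trend at these levels was 0.111, 0.113 and 0.15. Among genes of like level, however, 73.6% had a lower value than Ostc, against 30.1% for Spcs3 and 30.8% for Ern1.

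The named genes whose pattern over the 12 libraries was most like that of each gene were sought among 1309 genes with a symbol and a mean of at least 1 CPM. For Spcs3 these were Rassf9 (Pearson correlation 0.98), AABR07001382.1 (0.971) and Odc1 (0.966), which encodes the enzyme that makes putrescine from ornithine. Among all 11590 genes at that level, most without a symbol, 0 genes were more like Spcs3 than Rassf9, 3 more than AABR07001382.1 and 4 more than Odc1. Odc1 had mean levels of 393 CPM in WT, 717 in VAMP7KO and 216 in ATG5KO. For Ostc they were Asah2 (0.961), a neutral ceramidase gene, AABR07031491.2 (0.953) and Armcx3 (0.948). For these, 2, 6 and 8 of the 11590 genes were more alike. Asah2 had 4.9 CPM in VAMP7KO against 0.282 in WT and 0.168 in ATG5KO. For Ern1 they were Gna11 (0.967), a G protein α subunit gene, Map3k1 (0.948), a MAP kinase kinase kinase gene, and Pcdh1 (0.937), a protocadherin gene. Here 2, 16 and 27 genes were more alike than the named ones. Gna11 was at 165 CPM in WT, 96.2 in VAMP7KO and 104 in ATG5KO. The named genes are mostly ones that the study lists as changed, so this search covers only part of the table.

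Of 58 genes of ER translocation, signal peptidase and oligosaccharyltransferase, only Spcs3 and Ostc could be named in the table. The others were not analysed here, so the pair does not stand for the pathway. Of 51 UPR sensors and targets, 6 could be named, and the study lists all 6 as changed, so they are not independent evidence of a direction. Against WT, 4 of them were higher in VAMP7KO and 2 lower, given as a description. The log2 fold changes were 1.26 for Phgdh, 0.79 for Lars1, 0.78 for Sesn2, 0.72 for Psph, -0.73 for Ern1 and -1.86 for Stc2. The study reports enrichment of UPR genes and more BiP protein in VAMP7KO, so Ern1 alone does not stand for that response. In ATG5KO against WT, 3 of these 6 were called lower, 1 higher and 2 neither way, against 46.3% of all genes called. The names came in part from the study's list of genes changed in this same contrast. Naming thus favoured a call, and the share over all genes is not a like background. Besides Ern1, Stc2, a secreted glycoprotein gene, had a log2 fold change of -1.40 (SE 0.276, adjusted p = 0.00234 in edgeR). Sesn2, a stress-induced regulator of mTORC1, had one of -0.67 (SE 0.189, adjusted p = 0.0163 in edgeR). Phgdh, the first enzyme of serine synthesis, had one of 0.86 (SE 0.317, adjusted p = 0.047 in edgeR). Psph, the last enzyme of that pathway, had -0.24 (adjusted p = 0.324 in edgeR), and Lars1, a leucyl-tRNA synthetase gene, had -0.20 (adjusted p = 0.325). Between the sets, 5 of the 6 were higher in replicates 3 and 4, Ern1 among them, and Stc2 was lower, at -0.51 (adjusted p = 0.000161 in edgeR). All 6 were thus called between the sets, where 70.9% of all genes tested were called and 34.5% were called higher.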

How the data were processed

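RNA-seq counts of 12 libraries were used, 4 each of WT, VAMP7KO and ATG5KO NRK cells, grouped by genotype label. The authors trimmed the reads and took out rRNA, then used STAR for mapping to mRatBN7.2 and htseq-count for read counts per gene of an Ensembl annotation. The deposited counts were not normalized. The strand setting of the counting is not given in the sources used here. RefSeq holds pseudogenes of Spcs3 and Ostc and gives Spcs3 as a synonym of Arxes1, so these counts are uncertain where such copies share reads. Symbols came from the study's supplementary lists, which name 1976 genes.

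Counts were fitted with edgeR 4.0.16 (R 4.3.3; TMM, filterByExpr by genotype, glmQLFit and glmQLFTest), with genotype and replicate number as a block, over all libraries and genes. The Benjamini-Hochberg limit was 0.05. Set differences and interactions used genotype, set and their interaction. Deviations from genotype means correlated at 0.562 to 0.681 between libraries of equal number, which by the criterion used (over 0.1 in 12 of 12 pairs) pairs the numbers. They correlated at 0.529 to 0.677 between other libraries of the same set and at -0.682 to -0.543 across sets, so the pairing is not known to go beyond the set. No pair of libraries held identical counts. The study's methods call the replicates independent, with RNA from a dish per genotype in each. With the replicate block, p-values between genotypes measure how the genotype differences vary across replicate numbers. What dishes of the same number share is taken out. In the fits of set differences and interactions, p-values measure the spread between dishes of a genotype within a set. A count of 3 stood for 0.0986 to 0.139 CPM, and counting errors cover counting only, since reads carried no molecular identifiers.

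The genes, lists and tests were chosen with earlier results of these data known. Genes named were the 3 members, Vamp7, listed pathway and marker genes with a symbol, and for each member the 3 most correlated genes with a symbol. Alternatives were DESeq2 size factors, the DESeq2 1.42.0 Wald test, no filter, no replicate block, the set as block, only the compared genotypes, each set alone and each library left out. The fits were tested on simulated data. Those data held no difference between the sets except in genes changed on purpose. They therefore do not check the fits under a set split as broad as the one seen here.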

Additional observations from a re-analysis of the deposited data

Results flagged for a closer look

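The VAMP7KO effect on Ostc differed between the replicate sets by a test of the difference itself. The log2 fold change of VAMP7KO over WT in replicates 3 and 4 minus that in replicates 1 and 2 was -0.45 (SE 0.136, Benjamini-Hochberg adjusted p = 0.0316 in edgeR's quasi-likelihood test). The level in VAMP7KO was 137.8 CPM in replicates 1 and 2 and 99.87 CPM in replicates 3 and 4, while WT was at 78.34 and 77.5 CPM. Many of the genes tested, 16.5%, had such a difference, and leaving out 1 library ended the call for Ostc in 6 of 12 cases.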

How the results depend on the processing

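For ATG5KO against WT, edgeR called 6081 genes, and 3102 with no replicate block. With no replicate block Spcs3 was at -0.25 (adjusted p = 0.144 in edgeR) and Ern1 at -0.45 (adjusted p = 0.27), neither called, while Ostc was uncalled with and without the block. In replicates 1 and 2 alone, Spcs3 was at -0.15 and uncalled, and Ostc turned to 0.0098. In replicates 3 and 4 alone Ostc was called, at -0.24. Leaving out 1 library gave -0.30 to -0.21 for Spcs3, -0.20 to -0.05 for Ostc and -0.51 to -0.40 for Ern1.

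For the VAMP7KO effect between sets, 2165 genes were called, and 1312 to 2722 with 1 library left out. They were fewer by over 1.5 times without WT replicate 3 (1335), WT replicate 4 (1419) or VAMP7KO replicate 3 (1312). Spcs3 ranged from -0.25 to -0.10, Ostc from -0.52 to -0.36 and Ern1 from -0.058 to 0.50, with the reversed -0.058 without VAMP7KO replicate 2. For the ATG5KO effect between sets, Spcs3 ranged from -0.29 to -0.13, Ostc from -0.41 to -0.11 and Ern1 from -0.13 to 0.15. Ern1 was reversed without WT replicate 1 (-0.13), ATG5KO replicate 2 (-0.03) or ATG5KO replicate 4 (-0.0045). Neither Ern1 difference was called. Where a single library changed a value, the cause was not tested. The set differences of the 3 genes kept direction and call with each of the 12 libraries left out and in the 3 other alternatives run for them. Depth limits Ern1 most, through its counting error.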
